A study of Homo sapiens with 12 samples.

Results

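HCT116 is an established human colorectal carcinoma cell line. The transcriptome described here is that of the 4 libraries labelled 0 hours, of 12 in the series, and each of the 4 lists the same 18969 genes. The cells were grown in RPMI-1640 with fetal bovine serum. The other 8 libraries, in 2 groups of 4, had methionine-free medium for 24 h without or with UNC0642, an inhibitor of the histone H3 lysine 9 methyltransferases G9a and GLP, and then 24 h of methionine-replete medium. They are not used below. The labels do not say whether 0 hours was before the methionine-free medium or at its end, and they do not say whether the 4 libraries came from separate cultures. The spread between them may therefore be technical. RNA came from a bulk culture, in which fewer cells of a kind and less RNA per cell cannot be told apart. With 1 group there is no contrast and no test, and an exact paired sign permutation over 4 libraries could not go below a two-sided p of 0.125. All errors below are SD with n = 4.

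The colon epithelium is renewed by WNT-dependent stem cells at the crypt base, whose daughters leave the cycle and become absorptive colonocytes or mucus-secreting goblet cells, with a few hormone-producing enteroendocrine and chemosensory tuft cells. Its identity is held by homeobox and other transcription factors such as CDX2, HNF4A and GATA6, by the posterior HOX genes, and by simple-epithelial keratins and junction proteins. A carcinoma line keeps part of that program and loses part. HCT116 is known as a CTNNB1-mutant line.

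Levels are given as FPKM, the fragments assigned to a gene per 1000 bases of transcript and per 1000000 fragments, so that genes of different length can be compared. Depth was 14658103 to 18246707 expected counts per library (fragments assigned to genes by a model, which need not be whole), and 14345 to 14589 genes had a count. A gene is called expressed below where it had at least 1 FPKM in each of the 4 libraries, silent where it stayed under 0.1 FPKM in each, and intermediate otherwise. By that rule 10797 genes (56.9%) were expressed, 3156 (16.6%) intermediate and 5016 (26.4%) silent. Counts within families and lists below are to be read beside these shares. Of the silent genes 3338, or 17.6% of all genes, had no count in any library. Few genes lay at the limit itself: 110 were just inside, with a lowest library of 1 to 1.1 FPKM, and 117 just outside, at 0.9 to 1. A 1000-base gene at 1 FPKM rested on about 15 to 18 counts per library. A count of 0 allows a level of up to 3 counts, and such limits are given below for the shallowest library for that gene. They cover counting error only.

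Most expressed genes had moderate levels. Their median was 12.99 FPKM, with a 10th percentile of 2.62 and a 90th percentile of 82.3. Levels of at least 10 FPKM in each library were held by 6057 genes, of at least 100 by 818 and of at least 1000 by 96. The 4 libraries gave nearly the same levels. The median coefficient of variation of an expressed gene was 4.86%, and 99.7% of expressed genes stayed within a 2-fold range over the 4 libraries. The spread beyond counting error, as the biological coefficient of variation fitted by edgeR to 11963 genes, was 3.11%.

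**Figure D1:**
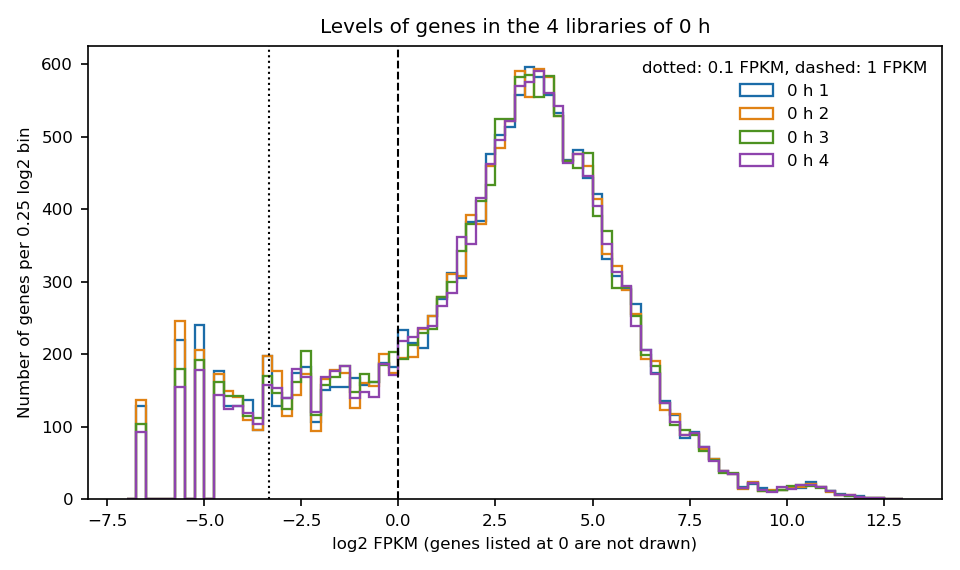
Number of genes in each bin of log2 FPKM, 1 outline per 0 h library, with genes listed at 0 left out. The 4 outlines overlie one another, with a peak above 1 FPKM (dashed line) and a low shoulder that reaches below 0.1 FPKM (dotted line). The separate spikes at the far left are genes with 1 or a few counts.

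The most abundant messages were those of the translation machinery, the actin cytoskeleton, glycolysis and protein folding. RPS2, a protein of the small ribosomal subunit, led with 5645, 5479.9, 5175 and 5263 FPKM in libraries 1 to 4. RPLP1, an acidic protein of the ribosomal stalk, had 4378, 4229, 3997 and 4170.3. RPS2 was above RPLP1 in each library, by more than the spread of either. ACTG1, cytoplasmic gamma-actin, had 4098, 4212, 4141 and 3979 FPKM, and GAPDH, the glycolytic dehydrogenase, 4001, 3998, 3944 and 3942. RPLP1 and ACTG1 changed places between libraries, and GAPDH was below both in each library, although the ranges overlapped. Next were RPL41 at 3713 ± 197, RPL8 at 3427 ± 59.7 and RPS18 at 3412 ± 125 FPKM. EEF1A1, the elongation factor that brings aminoacyl-tRNA to the ribosome, had 3167 ± 38.3. The nuclear acidic protein prothymosin alpha (PTMA) had 2967 ± 35.7, the actin-sequestering thymosin TMSB10 2719 ± 68.7, beta-actin (ACTB) 2586 ± 50.3 and the chaperone HSP90AB1 2568 ± 35.0 FPKM. PFN1, profilin, was 29th with 1980.2 ± 22.8. MTRNR2L2, ranked 21st with 2295 ± 23.3, is a nuclear gene that closely resembles the mitochondrial 16S ribosomal RNA, and reads of the 2 RNAs cannot be told apart here.

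Ribosomal protein genes were 21 of the 30 most abundant by FPKM and 67 of the first 100. All 78 measured were expressed, at 224 to 5391 FPKM with a median of 1558, and 66 had at least 1000. Together they took 23.6% ± 0.447 of the summed FPKM and, without scaling for length, 7.94% ± 0.165 of the counts. They are short genes with many processed pseudogenes, so the split of reads among copies is uncertain. The 8 subunits of the cytosolic chaperonin, which folds actin and tubulin, were all expressed at 233 to 496 FPKM, from CCT5 at 233 ± 3.65 to CCT3 at 496 ± 10.2.

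**Figure D2:**
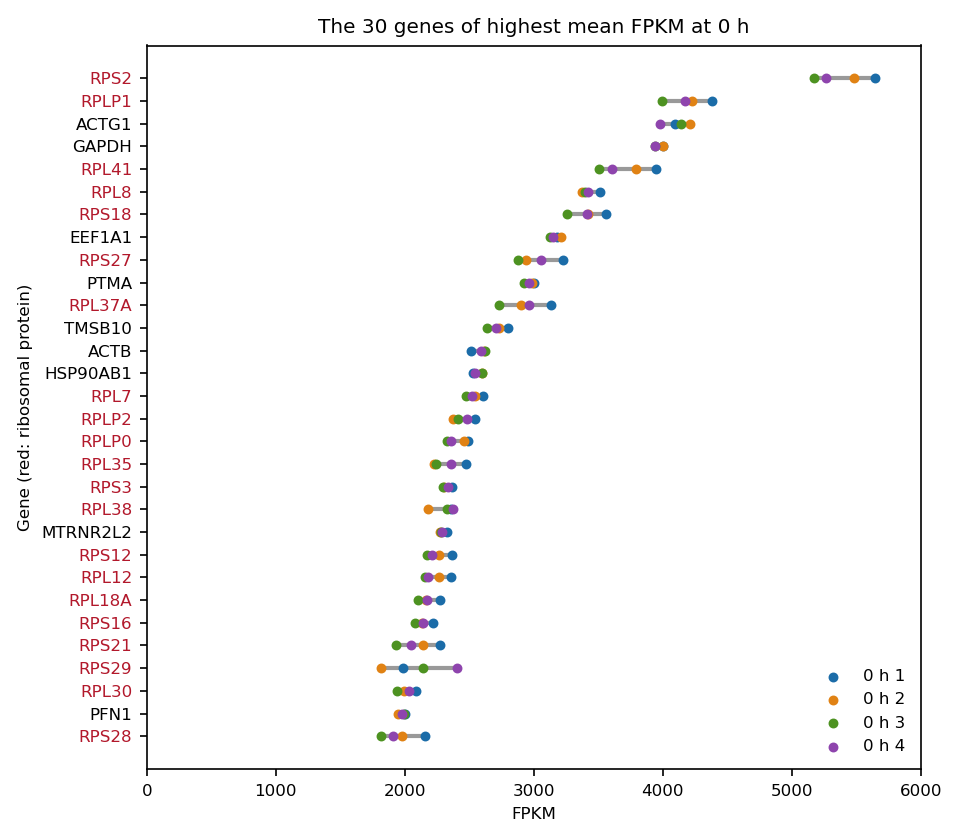
FPKM of the 30 genes of highest mean, 1 point per 0 h library and a grey line over their range. Gene names of ribosomal proteins are in red. RPS2 stands apart from the rest, at 5175 FPKM or more in all 4 libraries, and from RPL41 downwards the ranges of neighbours mostly overlap.

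Counting fragments without regard to length gave another order. EEF1A1 led, with 183368, 198889, 157248 and 157345 expected counts in libraries 1 to 4. ACTG1 followed with a mean of 124653, then HSP90AB1 with 100737, HSP90AA1 with 78696, GAPDH with 76946, RPS2 with 72482, ACTB with 71032 and EEF2 with 57080. AKAP12, a long scaffold protein for protein kinase A, was 9th by count with 56586 and only 170th by FPKM with 428 ± 9.81. PTMA was 10th with 52421. Of the first 100 genes by count 27 encoded ribosomal proteins, and 51 genes stood in both lists of 100. The median length was 764 bases in the list by FPKM, 1878 in the list by count and 2887 over expressed genes.

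A small number of genes held much of the RNA. The first gene took 0.978% of the summed FPKM, the first 10 took 6.78%, the first 100 took 33.4% ± 0.366 and the first 1000 took 67.3%. By expected count the first 100 took 19.1%. A share of 50% of the summed FPKM was reached with 316 genes, of 90% with 4062 and of 99% with 9025.

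Families of isozymes differed in which copy of an enzyme had the higher RNA level in this line. Several enzymes of glycolysis have a general form and forms kept for muscle, brain, liver or the testis. PGK1, the general phosphoglycerate kinase, had 215, 217, 208 and 212 FPKM, whereas PGK2, its retrogene of the testis, had no count in any library (limit 0.129 FPKM). LDHB, the heart-type lactate dehydrogenase subunit, had 967, 965, 956 and 945 FPKM and LDHA, the muscle-type subunit, 619, 628, 615 and 616. LDHB was the higher in 4 of 4 libraries, by 0.63 ± 0.013 on the log2 scale or 1.55-fold. LDHC, the subunit of sperm, had no count (limit 0.177 FPKM).

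To show what these genes look like before their starts, the 250 bases upstream of the start listed by RefSeq are printed here for genes at the top and the bottom of their families, 5′ to 3′ on the gene's strand, with every CpG in capitals. RefSeq's table may list a start other than the one used in HCT116. EEF1A1 (chr6:73521033-73521282, minus strand, GRCh38.p14) is the most counted gene. PGK1 (chrX:78103998-78104247, plus) is the expressed kinase and PGK2 (chr6:49787286-49787535, minus) the kinase without a count. LDHB (chr12:21657843-21658092, minus) is an expressed dehydrogenase and LDHC (chr11:18412068-18412317, plus) the one without a count.
EEF1A1: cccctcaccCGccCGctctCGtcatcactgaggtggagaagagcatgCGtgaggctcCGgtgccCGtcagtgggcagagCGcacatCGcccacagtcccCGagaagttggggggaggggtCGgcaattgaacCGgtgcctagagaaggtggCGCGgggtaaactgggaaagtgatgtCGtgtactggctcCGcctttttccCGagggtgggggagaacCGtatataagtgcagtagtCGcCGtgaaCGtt
PGK1: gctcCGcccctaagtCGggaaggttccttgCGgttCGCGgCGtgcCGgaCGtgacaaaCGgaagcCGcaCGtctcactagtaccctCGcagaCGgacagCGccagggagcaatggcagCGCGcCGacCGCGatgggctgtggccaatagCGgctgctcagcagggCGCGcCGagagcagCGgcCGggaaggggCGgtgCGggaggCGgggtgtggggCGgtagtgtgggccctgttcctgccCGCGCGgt
PGK2: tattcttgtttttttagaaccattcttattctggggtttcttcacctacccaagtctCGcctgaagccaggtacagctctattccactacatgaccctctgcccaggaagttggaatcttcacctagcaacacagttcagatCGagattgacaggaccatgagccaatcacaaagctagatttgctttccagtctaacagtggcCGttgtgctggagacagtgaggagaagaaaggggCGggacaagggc
LDHB: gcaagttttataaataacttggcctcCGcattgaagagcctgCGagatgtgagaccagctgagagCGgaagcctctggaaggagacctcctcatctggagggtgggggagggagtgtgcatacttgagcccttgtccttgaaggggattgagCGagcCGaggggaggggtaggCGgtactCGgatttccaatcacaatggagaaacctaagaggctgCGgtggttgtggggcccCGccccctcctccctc
LDHC: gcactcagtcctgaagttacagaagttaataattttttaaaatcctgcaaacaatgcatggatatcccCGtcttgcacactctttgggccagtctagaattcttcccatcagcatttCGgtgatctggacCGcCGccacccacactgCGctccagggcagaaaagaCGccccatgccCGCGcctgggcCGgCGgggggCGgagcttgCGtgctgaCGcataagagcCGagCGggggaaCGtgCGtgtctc
The stretch of EEF1A1 holds 20 CpG and that of PGK1 holds 32, whereas PGK2 holds 4. For the lactate dehydrogenases shown the order is the other way: LDHB, the expressed one, holds 9, and LDHC, without a count, holds 17.

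Promoters were described in the same way across genes. RefSeq promoters (250 bases before to 50 after the start) matched 14900 of the 18969 genes, and 82.0% of the expressed ones. Among those expressed genes the median CpG ratio, observed over the number that base composition alone gives, was 0.855 (quartiles 0.731 and 0.960). It was 0.907 among the 81 matched of the 100 most abundant genes. In 281 promoters of silent olfactory receptor genes (80.5% of them) it was 0.120, a value of 1 family that does not stand for silent genes. The 5 promoters found for the 7 silent HOX genes had a median of 0.860, and the 2 found for the 9 expressed keratins 0.103, too few for a comparison. TATAAA stood in 4.79% of expressed promoters, 33.8% of those of silent olfactory receptors and 9.35% of all 14900. GGGCGG, the GC box, stood in 73.3%, 1.07% and 59.8%, and CCAAT in 37.1%, 43.1% and 36.5% (each on either strand, and no motif contains another). The median GC content of these promoters was 66%, 37.7% and 63%, in that order, and the motif shares were not corrected for it. A match is only a description of the letters. A comparison with the whole silent class is void, because only 74.5% of its genes had a promoter in the table.

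Other isozyme families ranged from 1 dominant member to several of like level. ENO1, the general enolase, had 1825, 1830.5, 1825 and 1817 FPKM, ENO2, the neuronal form, 16, 15.7, 16.9 and 14.4, and ENO3, the muscle form, 1.67 ± 0.212. ENO1 was 115-fold above ENO2 (log2 difference 6.85 ± 0.091). ALDOA was 129-fold above the brain form ALDOC (6.88 ± 0.757 FPKM, log2 difference 7.02 ± 0.167). The pyruvate kinase gene listed as PKM2 had 832 ± 4.86 FPKM and the liver and red-cell form PKLR 0.0225 ± 0.045. All 3 phosphofructokinases were expressed, the platelet form PFKP (163 ± 3.71) above the muscle form PFKM (54.4 ± 1.53) and the liver form PFKL (44.9 ± 0.897). HK1 (27 ± 1.26) and HK2 (19.5 ± 0.891) were 0.47 ± 0.080 apart on the log2 scale in favour of HK1, and HK3 was silent. Without scaling for length LDHA was above LDHB and HK2 above HK1, since the transcripts differ in length.

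Carriers and conjugating enzymes also differed in level between members. Among 14 GLUT transporters 5 were expressed (8 by CPM in place of FPKM), led by SLC2A1 with 91.4 ± 2.41 FPKM, while the liver and islet form SLC2A2 had no count. Creatine kinase was mostly the brain form, CKB with 345 ± 8.37 FPKM, which was 95.9% of the family's summed FPKM. CKM, the muscle form, was at 0.0975 ± 0.0695. EEF1A2, the elongation factor copy of neurons and muscle, reached 279, 289.7, 301 and 283 FPKM, 10.99-fold below EEF1A1 yet ranked 255th among all genes. Without scaling for length the log2 difference of EEF1A1 from EEF1A2 was 4.43 in place of 3.46. Of 3 ALDH1A genes, which make retinoic acid, ALDH1A3 had 92 ± 1.51 FPKM, ALDH1A1 0.055 ± 0.052 and ALDH1A2 0.005 ± 0.01. Of the methionine adenosyltransferases, which make S-adenosylmethionine, the catalytic MAT2A had 135 ± 3.23 FPKM, its partner MAT2B 39 ± 0.63 and the liver form MAT1A 0.12 ± 0.0392. GSTP1 led 16 glutathione transferases with 626 ± 20.4 FPKM, and GSTT1 and GSTA1 had no count. Metallothioneins, which bind zinc and copper, were carried by MT2A (1717 ± 77.5 FPKM), MT1E (905 ± 51.6), MT1X (137 ± 15.4) and MT1F (5.54 ± 0.81), while 5 of 11 had no count. Members of this family are near copies, so their split is uncertain.

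HCT116 had the genes of a simple epithelium. Of 27 core epithelial genes 26 were expressed and OVOL2, a zinc-finger repressor, crossed the limit with 0.66, 0.99, 1.12 and 0.84 FPKM. Of 55 keratins, the intermediate filaments of epithelia, 9 were expressed (16.4%) and 35 silent (63.6%), beside 56.9% and 26.4% of all genes. KRT8 had 1449, 1452, 1404 and 1433 FPKM, its partner KRT18 912, 903, 871 and 867 and KRT19 649.9, 632, 623 and 605. KRT8 was above KRT18 in 4 of 4 libraries, 1.62-fold. These 3 keratins of simple epithelia stood far above the next, KRT10 (32.5 ± 1.63) and KRT7 (13.3 ± 1.39). KRT80, KRT15, KRT23 and KRT222 lay between 2.57 and 7.56 FPKM. KRT20, a keratin of differentiated colonocytes, was at 0.17, 0.26, 0.2 and 0.2 FPKM, and the basal keratins KRT5 and KRT14 were silent. Keratins have many pseudogenes, KRT8 and KRT18 above all, and the share of reads from these is unknown.

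The junctions were of the same kind. EPCAM, the epithelial adhesion molecule, had 202, 203, 200.0 and 201 FPKM. Of 23 claudins, which seal tight junctions, 6 were expressed (26.1%, beside 56.9% of all genes). CLDN7 (72.9 ± 2.73) and CLDN4 (47.2 ± 1.63) were well above CLDN12, CLDN3, CLDN15 and CLDN23, and CLDN1 was silent at 0.015 ± 0.0191. Of 30 cadherins 6 were expressed (20%). CDH1, E-cadherin, had 9.35, 10.3, 11.3 and 9.41 FPKM and CDH3, P-cadherin, 30.2, 31.1, 29.7 and 30.4, 3.00-fold more (log2 difference 1.58 ± 0.138). The desmosomal cadherin DSG2 was highest with 47.1 ± 1.11. The intestinal cadherin CDH17 was silent at 0.0375 ± 0.035. Of 10 plaque proteins of desmosomes and hemidesmosomes 9 were expressed, from PLEC (91.7 ± 1.8) down to PPL (8.84 ± 0.234), and PKP1, of stratified epithelia, was at 0.0025 ± 0.005. Among 26 integrins, the receptors for matrix, 11 were expressed (42.3%). ITGB1 was at 146 ± 4.02, ITGA3 at 52.6 ± 0.977, ITGB5 at 51.9 ± 1.11, ITGA6 at 32.7 ± 0.32 and ITGB4 at 28.9 ± 0.694 FPKM.

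Mesenchymal genes were mostly low. Of 17 listed, 5 were expressed (29.4%, and 3 genes at double the limit) and 5 silent (29.4%), beside 56.9% and 26.4% of all genes. VIM, vimentin, had 2.74, 1.9, 2.47 and 1.37 FPKM and FN1, fibronectin, 2.3, 1.61, 3.38 and 1.75. FN1 and VIM overlapped, and both lay below the 10th percentile of expressed genes. N-cadherin (CDH2) was at 0.01 ± 0.0141, and ZEB2, TWIST2 and PRRX1 had no count. Higher were S100A4, a calcium-binding protein of motile cells, with 171, 157, 157 and 170.3 FPKM, the repressor of E-cadherin SNAI1 with 8.6 ± 0.472 and TAGLN, an actin-binding protein of smooth muscle, with 6.59, 5.08, 6.69 and 6.58. S100A4 is 1 of 9 expressed among 19 S100 genes, and S100A6 (859 ± 23.2), S100A10 (223 ± 3.47) and S100A11 (182 ± 4.47) were above it. Among annexins, which bind membranes and S100 proteins, ANXA2 led with 1001 ± 15.7 and ANXA13, an intestinal form, had no count. Nuclear lamins were all expressed, LMNA (258 ± 1.21) above LMNB2 (209.7 ± 2.15) and LMNB1 (92.4 ± 1.08), and LMNA was 2.79-fold above LMNB1.

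Of 20 transcription factors of the intestine, 10 were expressed (50%) and 4 silent (20%), shares near the 56.9% and 26.4% of all genes. CDX2, the homeobox master factor of the intestine, had 7.82, 7.26, 8.35 and 6.07 FPKM, and its paralog CDX1 had no count (limit 0.123). KLF5, a factor of proliferating crypt cells, had 17.6, 17.4, 18 and 17.7 FPKM, and KLF4, its counterpart in differentiating cells, 6.86, 7.27, 6.32 and 6.19. ELF3 (11.2 ± 0.339), EHF (7.55 ± 0.299), VDR, the vitamin D receptor (5.43 ± 0.175), and FOXA3 (4.97 ± 0.398) were expressed. GATA6 was low at 1.92, 1.82, 2.2 and 1.73 FPKM, and GATA4 and GATA5 had no count. HNF4A, which drives enterocyte genes, had 1.31, 1.68, 0.95 and 2.09 FPKM. Library 3 alone was under 1 FPKM, which made it intermediate.

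HOX genes record position along the body axis, with group 13 the most posterior. In the HOXA cluster 10 of 11 were expressed and in HOXB 8 of 10, against 4 of 9 in HOXC (2 at double the limit) and 1 of 9 in HOXD. Those shares were 90.9%, 80%, 44.4% and 11.1%, beside 56.9% of all genes. HOXA9 was the highest of all, with 55.1, 57.2, 55 and 53.5 FPKM. HOXA10 had 19 ± 0.918 and HOXA7 14.6 ± 0.843. HOXA13, the hindgut group, had only 1.08, 1.74, 1.74 and 1.24. In HOXB the peak lay at HOXB7 (41.9, 44, 38.8 and 36.8) and HOXB8 (37.6, 37.9, 37.6 and 36.2), whose ranges overlapped. Levels were lower on both sides, with HOXB6 at 19.8 ± 1.41, HOXB9 at 14.1 ± 0.186 and HOXB2 at 1.1 ± 0.263, and HOXB1 had no count. HOXB13, an isolated posterior gene, had 3.33 ± 0.472. HOXC9 (6.72 ± 0.365) and HOXC6 (3.01 ± 0.217) led HOXC. In HOXD, HOXD8 (1.8 ± 0.139) was alone above 1 FPKM in every library, and HOXD1, HOXD10 and HOXD13 had no count.

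**Figure D3:**
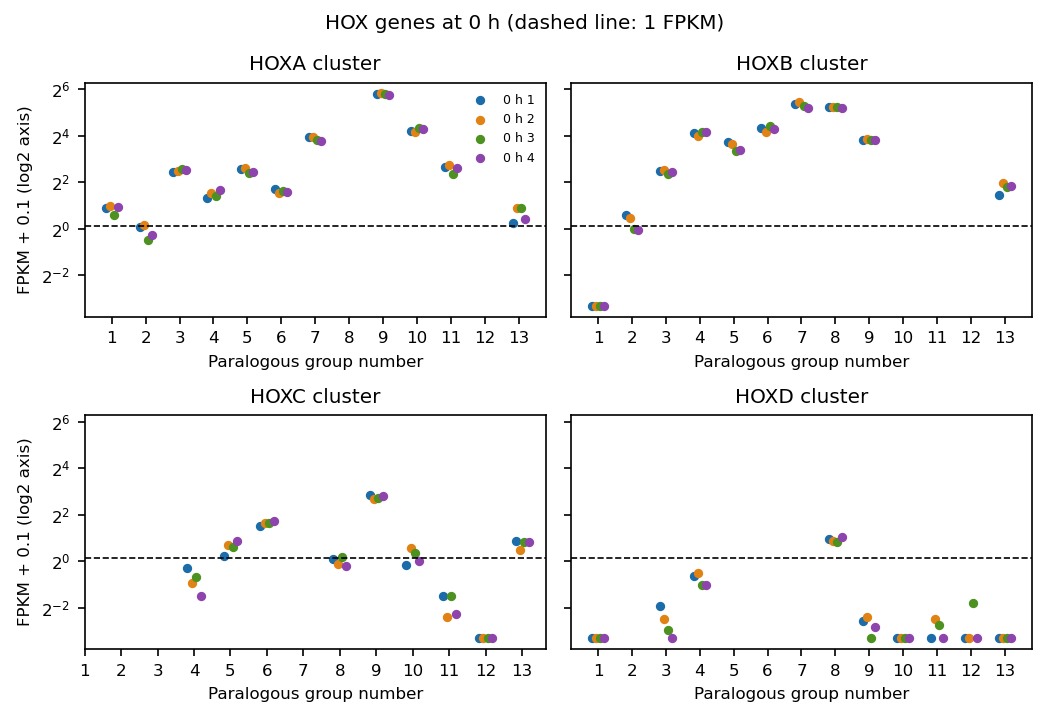
FPKM (plus 0.1, log2 axis) of the HOX genes by cluster and paralogous group, 1 point per 0 h library. HOXA peaks at group 9 and HOXB at groups 7 and 8, HOXC stays under 8 FPKM, and most HOXD genes lie at or near 0.

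Markers of mature intestinal cells were nearly absent. Of 37 colonocyte and enterocyte genes 2 were expressed (5.41%) and 25 silent (67.6%), beside 56.9% and 26.4% of all genes. Of the silent ones 14 had no count. The 2 expressed were CA2, a carbonic anhydrase, with 15.9, 16.4, 13.9 and 14.3 FPKM, and the sulfate carrier SLC26A2 with 2.87, 2.82, 2.93 and 2.88. VIL1, villin of the brush border, had no count (limit 0.0776 FPKM), nor had the chloride exchanger SLC26A3 or the sucrase SI. The tumour antigen CEACAM5 was at 0.0175 ± 0.0126, FABP1 at 0.158 ± 0.226 and LGALS4 at 0.065 ± 0.0943 FPKM. Of 13 mucins none was expressed. MUC1 was highest at 0.52, 0.96, 0.91 and 0.72, and MUC2, the goblet-cell mucin, had 0, 0.01, 0 and 0. The 3 trefoil factors had no count. Of the secretory list 4 of 21 were expressed, among them the HES factors HES6 (35.9 ± 2.4) and HES1 (10.4 ± 0.74). HES1 is also on the Notch list and does not mark secretory cells by itself. ATOH1, which starts the secretory lineage, had no count (limit 0.212). Enteroendocrine genes were expressed in 1 of 21 cases, SCG2 (3.29 ± 0.246), Paneth genes in 1 of 11, the lysozyme LYZ (1.54 ± 0.235), which is also on the blood list, and tuft genes in 0 of 10. Both CHGA and NEUROG3 were at or near 0.

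Of 22 genes of intestinal stem and progenitor cells 14 were expressed (63.6%) and 5 silent (22.7%), also near the shares of all genes. CD44, an adhesion receptor and WNT target, had 62.9 ± 1.69 FPKM, BMI1, a Polycomb protein, 39.2 ± 2.34, CDCA7 38.1 ± 1.01 and SOX9, the crypt-base factor, 30.2, 31.7, 31.8 and 33.6. LGR5, the receptor that marks crypt-base stem cells, had 0, 0, 0.07 and 0.1 FPKM. ASCL2, OLFM4 and APCDD1 had no count. SOX9 was high where LGR5 was near 0.

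**Figure D4:**
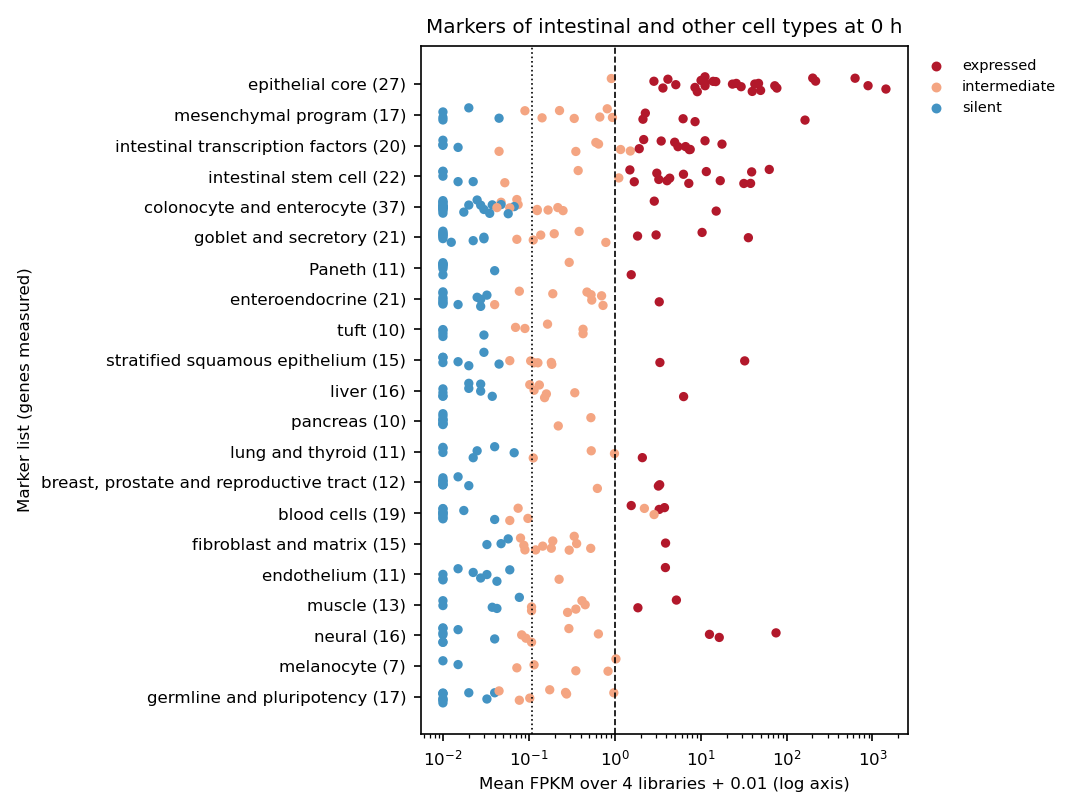
Mean FPKM over the 4 libraries of 0 h (plus 0.01, log axis) for each gene of the marker lists, with the number measured in parentheses, coloured by class. The epithelial core lies to the right of 1 FPKM (dashed line) but for 1 gene, whereas most mature intestinal and other tissue markers lie left of it, many left of 0.1 FPKM (dotted line).

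WNT signalling was represented by its receptors, its effectors and part of its targets. Among 19 WNT ligands 6 were expressed (31.6%, beside 56.9% of all genes), and WNT16 led with 36.4, 35.9, 37.1 and 37.2 FPKM, above WNT10B (7.93 ± 1.23). Of 10 frizzled receptors 7 were expressed (70%), FZD6 (16.3 ± 0.121) highest. CTNNB1, beta-catenin, had 116, 120.4, 112 and 116 FPKM. Of its DNA-binding partners TCF7L2 had 44 ± 1.91, TCF7 12.9 ± 0.977 and TCF7L1 5.84 ± 0.468, while LEF1 had no count (limit 0.0638). Of 24 output genes 11 were expressed (45.8%) and 9 silent (37.5%), beside 56.9% and 26.4% of all genes. CCND1, cyclin D1, had 307, 313, 313 and 309.9 FPKM, MYC 179, 175, 179 and 173 and the secreted WNT inhibitor DKK1 142, 142, 130.2 and 130.4. The feedback genes RNF43 (16.9 ± 1.01) and AXIN2 (7.27 ± 0.299) were lower. The inhibitors SFRP1, SFRP2 and WIF1, often methylated in colorectal cancer, were silent or without a count.

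All 28 listed colorectal cancer genes were expressed (100%, beside 56.9% of all genes). HRAS had 87.6, 88, 87.7 and 92.6 FPKM and NRAS 33.6, 35.6, 32.4 and 30.9, the same order in each library. SMAD4 had 8.86 ± 0.184, APC 4.13 ± 0.0932, PIK3CA 3.81 ± 0.265 and BRAF 3.58 ± 0.0686 FPKM. Of the mismatch repair genes MSH6 had 29.7 ± 1.00 FPKM and PMS2 17.3 ± 1.05. MSH3 had 1.22 ± 0.165 and was below 1 in at least 1 library. RNA levels do not show whether a protein is made.

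Receptors and cell cycle genes differed in level between members. ERBB2 had 20.8 ± 0.445 FPKM, EGFR 9.55 ± 0.366, ERBB3 7.62 ± 0.593, and ERBB4 was silent at 0.005 ± 0.00577. All 4 FGF receptors were expressed, FGFR4 (22.2 ± 0.506) and FGFR1 (15.6 ± 0.526) above FGFR3 and FGFR2. EPHA2 had 68.7 ± 1.8 FPKM, 90.04% of the summed FPKM of 9 EPHA receptors, of which EPHA3, EPHA5, EPHA6 and EPHA7 had no count. Among cyclins, CCND1 and CCNB1 (167 ± 5.87) were far above CCND3 (27.8 ± 0.535), and CCND2 was silent at 0.01 ± 0.00816. All 7 inhibitors of the INK4 and CIP/KIP families were expressed, CDKN2A (61, 58.3, 60.6 and 56.1) and CDKN1A (54.7, 52.5, 51.2 and 50.6) highest. Of 17 BCL2 family genes 13 were expressed (76.5%, beside 56.9% of all genes). BCL2L1 (133 ± 1.58) stood far above BCL2 (0.8, 1.54, 1.34 and 0.89), which crossed the limit. In the TGF-beta and BMP pathway 23 of 30 genes were expressed (76.7%, beside 56.9% of all genes). The targets ID1 (129.8 ± 7.16) and ID2 (51.7 ± 2.01) and the ligand BMP4 (81.1 ± 1.98) led, and BMP2 was silent at 0.0275 ± 0.0222. In the Notch pathway 13 of 22 were expressed (59.1%), a share near that of all genes (56.9%). HES4 (61.6 ± 2.35) and the ligand JAG2 (34.5 ± 1.34) led. Of 43 nuclear receptors 20 were expressed (46.5%) and 16 silent (37.2%), beside 56.9% and 26.4% of all genes. NR2F6 (71.9 ± 2.08) and NR2F2 (38.1 ± 1.7) were highest.

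A list of 27 genes known from the literature as methylated in colorectal cancer was split. Expressed were 9 (33.3%) and silent 11 (40.7%), beside 56.9% and 26.4% of all genes. SEPT9 (115 ± 3.71), CDKN2A, RUNX3 (10.8 ± 0.312) and MGMT (9.49 ± 0.801) were expressed. CHFR (0.01 ± 0.0115), SDC2 (0.02 ± 0.0163) and SFRP1 (0.015 ± 0.0173) were silent, and BMP3, NEUROG1 and CRABP1 had no count. Methylation itself was not measured in these libraries.

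Markers of other tissues were low, with single exceptions. Their counts stand beside 56.9% expressed of all genes. Expressed were 1 of 16 liver genes, 0 of 10 of pancreas, 1 of 11 of lung and thyroid, 2 of 12 of breast, prostate and reproductive tract, 2 of 15 of stratified squamous epithelium, 2 of 13 of muscle, 3 of 16 neural, 0 of 7 of melanocytes and 0 of 17 of germline and pluripotent cells. The liver gene was CPS1, the urea cycle synthetase also present in small intestine, with 6.25, 6.26, 6.57 and 6.21 FPKM. The neural genes were TUBB3, a beta-tubulin, with 77.5, 73.9, 77 and 73, the neuropeptide precursor VGF with 16.6, 16.1, 16.6 and 16.4 and the synaptic calcium sensor SYT1 with 12.4, 13.2, 12.2 and 12.9 FPKM. Others on the list, GAP43, NEFL and STMN2, had no count. Of 14 fetal and oncofetal genes 7 were expressed (50%, beside 56.9% of all genes). HMGA1, an architectural chromatin protein, had 1297, 1327, 1325 and 1317 FPKM, HMGA2 74.2, 73.6, 73.5 and 73.3, IGF2BP2 52.3 ± 1.26 and IGF2BP3 20.1 ± 0.913, whereas IGF2BP1 was silent at 0.0675 ± 0.0171.

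Some families were almost wholly silent. All 40 defensins, antimicrobial peptides, had no count, as had 332 of 375 olfactory receptor genes. Depth limits this for short genes. Without a count, a gene of the length of RPS27 (351 bases) could have up to 0.819 FPKM. For one of the length of RPS2 (942 bases) the limit is 0.243. Of 44 genes of the GAGE, SSX, XAGE and PAGE cancer-testis families 0 were expressed. Antigen presentation was carried by class I: HLA-C had 212 ± 4.09 and HLA-B 82 ± 2.93 FPKM, and of the class II genes HLA-DMA alone (1.97 ± 0.453) was expressed.

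The expressed olfactory receptor genes lay almost all in 1 place. Of 375, 8 (4 at double the limit) were expressed (2.1%, beside 56.9% of all genes). In the RefSeq order of genes 7 of those 8 stood next to the beta-globin genes on chromosome 11. HBE1, embryonic epsilon-globin, had 49.9, 46.5, 42 and 48 FPKM, far above the other globins, and HBG2, fetal gamma-globin, had 2.65, 3.43, 1.55 and 2.41. HBD had no count. Beside HBE1, OR51B4 had 6.8, 7.69, 9.05 and 7.06 FPKM, OR51B2 3.97, 2.64, 3.34 and 4.44 and OR51B5 7.62, 8.64, 8.66 and 8.27. OR51B6 (1.96 ± 0.444), OR51I1 (2.48 ± 0.797), OR51I2 (2.02 ± 0.651) and OR52D1 (3.21 ± 1.59) followed, and OR51M1 and OR51Q1 were intermediate. The stretch ended sharply. Of the 19 olfactory receptor genes among the 20 places before HBB 18 had no count, and of the 13 among the 20 places after OR52D1 all 13 had none. Outside the interval 1 of 366 olfactory receptors was expressed, OR2A7 (2.65 ± 0.59). There 332 had no count, and the rest had counts below the limit for an expressed gene. The RefSeq span of OR51B5 encloses 6 of these genes (OR51B6, OR51M1, OR51Q1, OR51I1, OR51I2 and OR52D1). Because the strand used in counting is not given, reads of a long OR51B5 transcript and of the genes inside it cannot be told apart.

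**Figure D5:**
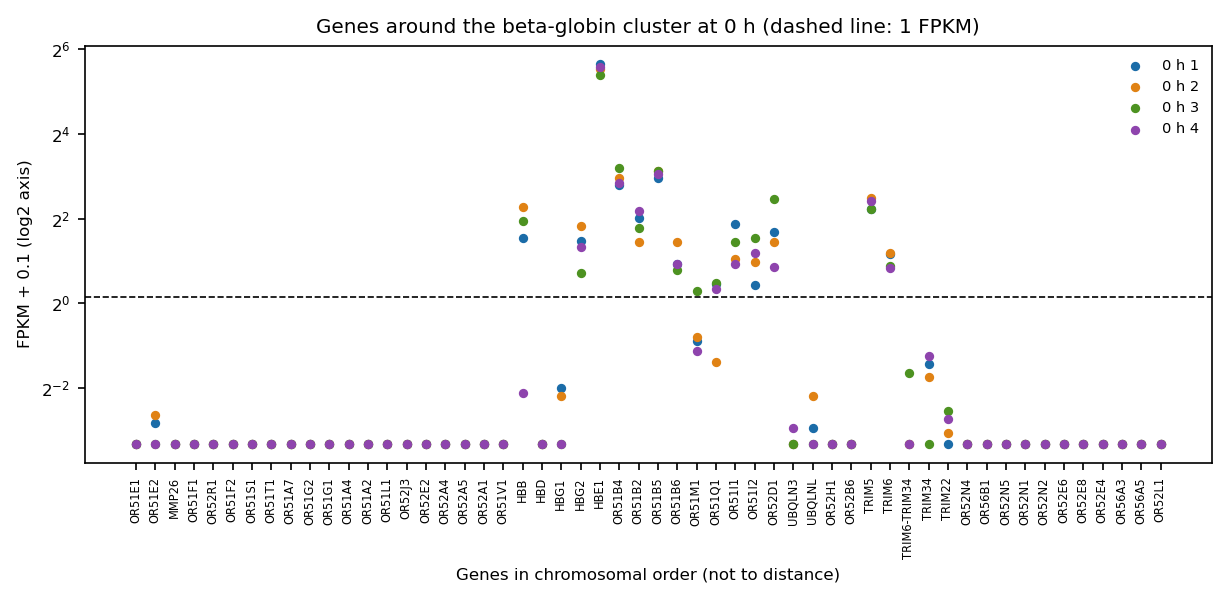
FPKM (plus 0.1, log2 axis) of the genes from 20 places before HBB to 20 after OR52D1 in RefSeq order on chromosome 11, evenly spaced and not to distance, 1 point per 0 h library. HBE1 is highest, most olfactory receptors beside it lie between 1 and 10 FPKM in each library, and those to either side lie at or near 0.

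The MAGE genes, cancer-testis antigens of the X chromosome, were similarly uneven. Of 24 measured 5 were expressed (20.8%) and 15 silent (62.5%), beside 56.9% and 26.4% of all genes. Of the silent ones 12 were without a count. MAGEB2 had 125, 123, 119.5 and 119.9 FPKM and MAGEA3 101, 101, 99.1 and 92.9. MAGEA2B (34.9 ± 2.29), MAGEA2 (25.5 ± 1.9) and MAGEB1 (4.29 ± 0.328) followed, and MAGEA1 and MAGEA4 had no count. MAGEA2 and MAGEA2B, and MAGEA3 and MAGEA6 (1.06 ± 0.303), are near-identical copies, so their split is uncertain. In RefSeq order MAGEB2 stands between IL1RAPL1 (0.21 ± 0.0739 FPKM) and MAGEB3 (0.0075 ± 0.015), and next come MAGEB4, without a count (limit 0.0952), and MAGEB1. The expressed MAGEB2 and MAGEB4, without a count, are printed as above (250 bases before the RefSeq start, CpG in capitals, GRCh38.p14). MAGEB2 is from chrX:30215313-30215562 and MAGEB4 from chrX:30241750-30241999, both on the plus strand.
MAGEB2: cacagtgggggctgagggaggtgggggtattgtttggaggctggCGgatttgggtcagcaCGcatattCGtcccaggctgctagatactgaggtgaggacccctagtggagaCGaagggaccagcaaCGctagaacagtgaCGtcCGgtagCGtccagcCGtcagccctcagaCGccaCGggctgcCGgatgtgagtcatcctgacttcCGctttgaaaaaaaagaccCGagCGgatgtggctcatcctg
MAGEB4: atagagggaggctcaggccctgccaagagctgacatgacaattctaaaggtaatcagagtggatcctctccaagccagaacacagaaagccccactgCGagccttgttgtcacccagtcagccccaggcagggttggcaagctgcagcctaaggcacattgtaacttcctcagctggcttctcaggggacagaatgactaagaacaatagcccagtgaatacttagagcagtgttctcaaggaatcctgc
The stretch of MAGEB2 holds 15 CpG and that of MAGEB4 holds 1, with CpG ratios of 0.703 and 0.0592. Over the family the contrast was smaller. In these 250 bases the median CpG ratio was 0.525 (quartiles 0.421 and 0.700) for the 5 expressed genes. It was 0.299 (quartiles 0.269 and 0.431) for the 12 promoters found for the 15 silent ones. The ranges between quartiles overlapped. Methylation of these stretches was not measured.

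The class of neighbouring genes was compared along the map. Of 18969 genes 98.8% were placed by symbol in RefSeq order. The nearest measured neighbours of an expressed gene were expressed in 66.1% of cases and silent in 16.6%, beside 56.9% and 26.4% of all genes. Those of a silent gene were expressed in 36.1% and silent in 49.2%. Tandem families share sequence and function, so these shares describe the map and carry no test. The longest silent run held 61 genes on chromosome 11, from OR4B1 to APLNR, mostly olfactory receptors. A run of 35 on chromosome 21, from GRIK1 to KRTAP19-8, held the hair keratin-associated proteins, and a run of 31 on chromosome 1, from TCHHL1 to SPRR4, the late cornified envelope genes of skin. The longest expressed run had 35 genes on chromosome 17, from C17orf28 to SRP68, with housekeeping genes such as GRB2, SUMO2 and H3F3B beside the epithelial LLGL2, ITGB4 and EVPL. Next was a run of 23 on chromosome 10, from NPM3 to C10orf26.

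A few genes of blood and connective tissue were lowest in the same library. HBB, adult beta-globin, had 2.79, 4.77, 3.75 and 0.13 FPKM in libraries 1 to 4, and HBA2, alpha-globin, 3.85, 3.26, 1.7 and 0. COL1A2, a chain of type I collagen, had 0.49, 0.32, 1.25 and 0, and DCN, decorin, 0.46, 0.49, 0.45 and 0. In each of these library 4 was lowest. The expected counts of HBB, HBA2, COL1A2, DCN, COL3A1 and SPARC, genes grouped after their values were seen, summed to 145, 155, 210 and 6 in libraries 1 to 4. COL1A1, in contrast, had 3.43, 3.88, 5.02 and 3.24 in the 4 libraries, without such a drop. HBA1, the other alpha-globin gene on the blood list, also stayed at 2.87 to 3.63 FPKM over the 4 libraries. How reads were split between HBA1 and HBA2 was not tested. Over the whole lists, the 19 blood genes summed to 9.06 to 16.5 FPKM and were expressed in 3 cases, the 15 fibroblast genes summed to 3.64 to 10.1 and were expressed in 1, and the 11 endothelial genes summed to 3.85 to 4.90 and were expressed in 1. The 27 core epithelial genes summed to 3829 to 3955. On the blood list CD68 was highest (3.78 ± 0.339) and expressed, whereas PTPRC, CD3E and CD34 had no count. On the endothelial list ESAM was highest (3.88 ± 0.585) and expressed, whereas CDH5 had no count. Without library 4, 5 blood genes were expressed in place of 3. HBB belongs to the interval beside the olfactory receptors. There OR51I1 (3.56, 1.97, 2.61 and 1.8 FPKM), OR51M1 (0.44, 0.47, 1.13 and 0.36) and OR52D1 (3.12, 2.61, 5.43 and 1.7) were lowest in library 4. HBE1, HBG2, OR51B4, OR51B2, OR51B5, OR51B6, OR51Q1 and OR51I2 were lowest in another library. A link between HBB and this interval was not tested, nor was the part of the blood and connective tissue genes in the other levels.

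The 10 most variable genes were mostly ones that share sequence with another gene. Among 10688 genes with a mean of at least 1 FPKM and 50 counts, 158 had a coefficient of variation above 20%. TMSL3, a near copy of the thymosin TMSB4X, had 0.57, 110.1, 1.09 and 0.63 FPKM, all but 1 library near 1. The read-through genes PPAN-P2RY11 (1.37, 4.91, 0.87 and 0.69) and RPL36A-HNRNPH2 (0.01, 6.4, 7.48 and 8.26) share exons with their parts. EIF3CL (1.65, 0, 1.62 and 1.64), SULT1A3 (3.99, 4.34, 1.67 and 0.84), GTF2H2 (9.29, 13.7, 2.6 and 11.7) and GTF2IRD2B (1.01, 1.37, 0.56 and 1.55) lie in duplicated stretches. The read-through C9orf30-TMEFF1, the phospholipase PLA2G4B, which overlaps a read-through gene, and FAM120C (1.88, 1.48, 1.15 and 2.78) complete the 10 most variable. The libraries also differed in the gap between transcript length and effective length, which in RSEM depends on fragment length: 120.29 and 120.69 bases in libraries 1 and 2 against 101.32 and 101.48 in libraries 3 and 4. The median log2 difference of libraries 3 and 4 from 1 and 2 was -0.05 for expressed genes of 500 to 700 bases and -0.01 for those over 2000, and its part in the levels was not tested.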

How the data were processed

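HCT116 RNA was taken up in Trizol, and a company built the libraries, per the labels' protocols. The submitters' processing notes name RSEM 1.2.4, Bowtie and the genome build hg18. Whether the kit kept strand, and which strand was counted, is not given in the sources used. The authors deposited, per gene and per the file headers, an expected count (an RSEM estimate that need not be whole), FPKM, TPM, length and effective length. FPKM is used as the authors deposited it, and the deposited TPM is not used. FPKM recomputed from expected counts and effective lengths differed by at most 0.122% above 20 FPKM.

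Samples were grouped by their treatment label. Classes are at least 1 FPKM in each library, under 0.1 in each, or neither. Ratios between genes are log2(FPKM + 0.1) differences within a library, given as mean ± SD. The biological coefficient of variation is edgeR 4.0.16's common dispersion in R 4.3.3, on expected counts rounded to whole numbers, after filterByExpr and TMM scaling. The script was tested on simulated data. Tables were made in Python 3.11.15. Families were found by symbol pattern (74 families, 2 patterns corrected after values were seen) and 29 marker lists were written by hand. The members and lists were chosen with earlier results of these data known. Named genes are the 30 highest by FPKM, the 10 highest by count, the leading, expressed or silent members of families and lists, a fixed set of cancer and lineage genes, and the 10 most variable. The text gives a part of these, and some genes that the counts of families and lists include are not reported here. Gene order and promoter sequences come from RefSeq on GRCh38.p14, matched by symbol, and were used for no coordinate of the hg18 files. Where RefSeq's table lists several starts, the first was used. Alternatives to the limits, units, pseudocount, filters and libraries were computed. Levels near 1 FPKM rest on few counts for short genes, and rank orders there are not settled.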

Additional observations from a re-analysis of the deposited data

Results flagged for a closer look

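Of 236 genes with printed values that differed between libraries, 15 had 1 library set apart from the other 3, by a gap to its nearest neighbour that exceeded Dixon's 95% critical share of the whole range. Chance flags about 1 in 20 groups of normally spread values, which would be about 11.8 genes here. These genes include ones picked for their spread and ones with 1 library above 0. The number of flags therefore cannot be weighed against that rate. Library 2 was the one apart in 7 genes, library 4 in 4, and libraries 1 and 3 in 2 each.

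Read-through and duplicated genes had large gaps. For TMSL3 library 2 had 110.1 FPKM and the others 0.57 to 1.09 (gap over range 0.995). For EIF3CL library 2 was listed at 0 and the others at 1.62 to 1.65 (0.982), and for PPAN-P2RY11 library 2 had 4.91 and the others 0.69 to 1.37 (0.839). Genes close to 0 were set apart by 1 or a few counts, namely ALDH1A2, MAGEB3, MUC2, PKLR and PKP1, each with 1 library above 0 and a gap over range of 1. DCN was at 0 in library 4 and at 0.45 to 0.49 in the others (0.918).

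Genes with more counts were set apart by smaller differences in proportion. CCNB1 had 175 FPKM in library 1 against 163 to 165 (0.848), HRAS 92.6 in library 4 against 87.6 to 88.0 (0.919), S100A10 218 in library 2 against 225 in the others (0.873) and COL18A1 30.3 in library 3 against 28.2 to 28.4 (0.934). TAGLN had 5.08 in library 2 against 6.58 to 6.69 (0.932), and CPS1 had 6.57 in library 3 against 6.21 to 6.26 (0.861).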

How the results depend on the processing

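No paired analysis was possible because there is 1 group and no result comes from a test. Under the alternatives run, the number of expressed genes went from 9960 (limit doubled) to 11654 (CPM in place of FPKM), and from 10834 to 10851 when a library was left out. The number of silent genes went from 4176 (CPM) to 5854 (limit doubled), and from 5144 to 5199 without a library. The share of the 100 most abundant genes was 19.1% when counted as fragments in place of FPKM, and 33.3% to 33.5% without a library. The biological coefficient of variation was 3.26% with no filter on low counts, and 3.01% to 3.18% without a library. Of 10 log2 ratios between genes, 8 kept their direction without length scaling, but 7 of these moved by more than the spread between libraries. LDHB to LDHA turned to a log2 ratio of -0.17 and HK1 to HK2 to -0.53 there, by the construction of that alternative. The family members expressed went from 386 to 338 (limit doubled), 431 (limit halved) and 435 (CPM). Of 74 families the count moved by over 1.5 times in 10 (limit doubled), 8 (limit halved) and 12 (CPM). Counts within the marker lists, an alternative chosen after seeing the data, stayed within 1.5 times in 115 of 116 cases for expressed genes when a library was left out. The exception was the blood list, with 5 expressed without library 4, and among silent genes it was the fibroblast list, with 5 silent without library 3. With the limit doubled or halved, the number expressed moved by over 1.5 times in 4 of 29 lists each, and the number silent in 2 and 5. Doubled, the mesenchymal list had 3 expressed in place of 5 and muscle 1 in place of 2. Halved, the enteroendocrine list had 3 in place of 1 and melanocytes 2 in place of 0. The median CpG ratio of expressed promoters was 0.836 in the 250 bases before the start and 0.870 in genes with 1 listed start, the latter also chosen after seeing the data. Depth limits low levels, since a 1000-base gene without a count could have up to 0.164 to 0.205 FPKM in a library.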

Other observations

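The cytoskeleton outside the keratins was also carried by few genes. TUBA1B, an alpha-tubulin, had 1529, 1548, 1499 and 1504 FPKM in libraries 1 to 4, above TUBA1C (597 ± 15.4), and TUBB, a beta-tubulin, 903 ± 15.9. The non-muscle myosin MYH9 had 129 ± 3.54 FPKM, 82.2% of the summed FPKM of 14 class II heavy chains, of which 5 had no count. EZR, ezrin of the cell cortex, was 13th by expected count. Of 43 collagens 10 were expressed (6 at double the limit, 16 by CPM). COL18A1 (28.8 ± 1.03), COL6A2 (27.5 ± 0.754), COL12A1 (26.3 ± 0.711) and COL6A1 (24.9 ± 0.649) led, and neighbours in that order were close, with COL18A1 and COL6A2 overlapping in range. Of 23 matrix metalloproteinases 5 were expressed (3 at double the limit), MMP15 (15.5 ± 0.657) and MMP14 (4.26 ± 0.271) highest, and MMP1 and MMP3 were silent. Of 20 connexins 5 were expressed, GJC1 with 18.8 ± 0.527, and GJA1, the common connexin of many cells, was at 0.0575 ± 0.0544.

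Families of signals and of metabolism were led by few members. Of 39 interleukins 3 were expressed (5 at the limit halved), IL18, an epithelial cytokine, with 33.8, 29, 33.4 and 29.1 FPKM, IL32 with 8.88 ± 1.28 and IL12A with 1.29 ± 0.216. No Toll-like receptor of 10 was expressed in every library, and TLR6 was highest at 0.912 ± 0.139. Of 55 cytochrome P450 genes 11 were expressed (6 at double the limit). CYP51A1, of sterol synthesis, had 38.3, 38.1, 37.5 and 38.2 FPKM and CYP24A1, which degrades vitamin D, 34.9, 37, 36.3 and 35.9. The vitamin D activating CYP27B1 had 3.15 ± 0.247. Of 15 apolipoproteins the mitochondrial APOO (17.6 ± 0.808) was the expressed one, and APOB and APOA4 were listed at 0. Of 22 FGF ligands 3 were expressed (7 at the limit halved), led by FGF19 (6.72 ± 0.561), an intestinal hormone. Among 19 SOX factors SOX4 (28.5 ± 0.591) stood next to SOX9, and SOX2 was silent at 0.0225 ± 0.033. Among 17 KLF factors KLF16 (47.1 ± 1.51) was above KLF5.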
